A study of Mus musculus with 8 samples.

Results

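miR-221-3p and miR-222-3p are the 3′ mature products of neighbouring microRNA hairpins on the mouse X chromosome. They were taken as the 2 of 1881 mouse miRNAs on the array whose name in the scanner files is mmu-miR-221-3p or mmu-miR-222-3p. Each has 2 probes, so the pair covers 4 of 4415 probes and 60 of 56430 mouse miRNA spots per array. The pair was chosen by the array signals themselves, because miR-221-3p was more than 2-fold lower in knockout than in wild-type skin, so every knockout against wild-type value of the pair below is a description without a test. Changes between embryonic days did not enter the choice and were tested.

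Footpad skin of C57BL6 mouse embryos was profiled on 8 single-colour Agilent arrays, 2 for each of 4 groups. The groups were embryos with a conditional knockout of Dicer (cKO) at E17.5, wild-type embryos at E17.5, cKO embryos at E16.5 and wild-type embryos at E16.5, where E gives the embryonic day. Each array held a pool of 3 to 5 embryos, so p-values measure the spread between pools, except where values raised to a floor, described below, hide it. The labels name no Cre driver, so the cells in which Dicer was deleted are not given in the sources used here. The arrays do not measure Dicer mRNA, and the extent of the deletion was not measured.

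A primary miRNA transcript is cut in the nucleus to a hairpin, and Dicer then cuts the loop off that hairpin to leave a short duplex. A strand of the duplex enters an Argonaute protein, and bases 2 to 8 of that strand, the seed, choose its target mRNAs. miR-221 and miR-222 are made from a common transcript and share their seed. They are known for repressing Cdkn1b, the cyclin-dependent kinase inhibitor p27, and Kit, the receptor for stem cell factor that melanocytes and mast cells depend on. They have been studied most in dividing tumour cells, endothelium and vascular smooth muscle.

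The mature sequences, from RefSeq on GRCm38.p6, are shown to set the shared seed of the pair, in capitals, beside the different remainder.
miR-221-3p: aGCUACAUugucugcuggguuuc
miR-222-3p: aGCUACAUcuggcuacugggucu
miR-1928: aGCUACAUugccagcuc
miR-221-3p lies at chrX:19146307-19146329 and miR-222-3p at chrX:19146901-19146923, both on the minus strand. Both are 23 bases long. They are identical over the first 8 bases, and 11 of 23 positions carry the same base when the strands are aligned without gaps. miR-1928, at chr1:74206562-74206578 on the minus strand, has the same seed and is on the array.

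The hairpins that Dicer cuts are shown with the 3′ mature arm in capitals, as RefSeq gives them on GRCm38.p6. The lower-case run before the capitals holds the other arm and the loop.
Mir221: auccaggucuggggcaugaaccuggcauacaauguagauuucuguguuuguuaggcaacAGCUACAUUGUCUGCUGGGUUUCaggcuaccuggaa
Mir222: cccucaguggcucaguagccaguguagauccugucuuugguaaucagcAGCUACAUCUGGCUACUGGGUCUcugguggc
Mir221 is 95 bases long (chrX:19146294-19146388) and Mir222 is 79 bases long (chrX:19146893-19146971). A stretch of 504 bases separates them. Since both lie on the minus strand, Mir222 comes first in the direction of transcription.

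The array probes, as the scanner files give them, are complementary to the 3′ part of each mature strand. They are shown because they fix which bases of each member were read; no base is in capitals.
miR-221-3p, longer probe: gaaacccagcagacaatgta
miR-221-3p, shorter probe: gaaacccagcagacaatgt
miR-222-3p, longer probe: acccagtagccaga
miR-222-3p, shorter probe: acccagtagccag
The miR-221-3p probes pair with bases 4 to 23 and 5 to 23 of the mature strand. The miR-222-3p probes are shorter and pair with bases 8 to 21 and 9 to 21. The longest run in which any of the 4 probes could also pair with the other member is 6 bases. Probes of different length and base content differ in brightness for the same amount of RNA, so the level of miR-221-3p is not set against that of miR-222-3p below.

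miR-221-3p was dimmer on every cKO array than on every wild-type array, with either probe. The signal is the scanner's background-subtracted fluorescence in arbitrary units, averaged over the 15 spots of a probe after spots marked as outliers were left out. At E17.5 the longer probe gave 22.5 and 21.3 units on the cKO arrays, against 66.1 and 74.9 units on the wild-type arrays. At E16.5 it gave 14.1 and 12.1 units on the cKO arrays, against 45.0 and 33.6 units on the wild-type arrays. The highest cKO array thus stayed below the lowest wild-type array, also across stages. The shorter probe gave 17.8 and 14.1 units in cKO and 49.1 and 56.5 units in wild type at E17.5. At E16.5 it gave 9.68 and 11.5 units in cKO and 33.4 and 27.4 units in wild type. Both probes therefore put the arrays of each stage in the same order of genotypes. How many other miRNAs separated the genotypes in this way was not counted. In the fit described below, 56 of 383 tested miRNAs (14.6%) passed as lower in cKO and 175 (45.7%) as higher. In whole skin, fewer cells of a type and less RNA per cell cannot be told apart.

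**Figure D1:**
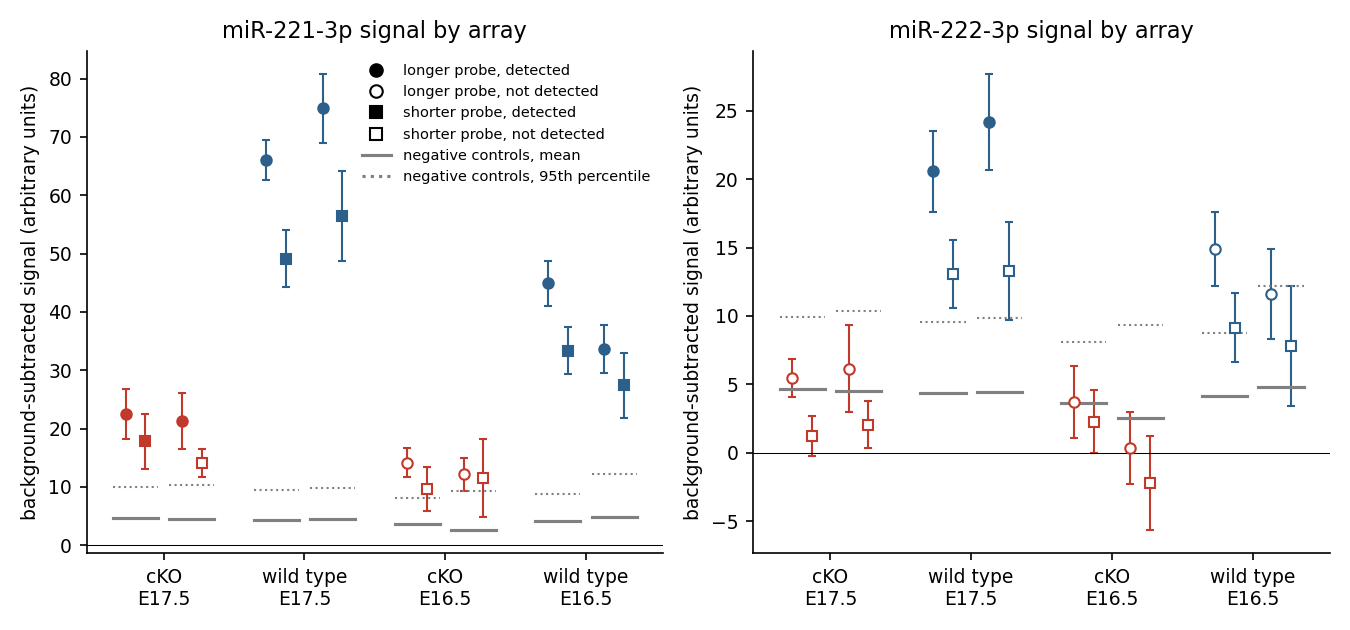
Signal of miR-221-3p (left) and miR-222-3p (right) on each of the 8 arrays, in arbitrary units on linear axes, by group with replicate 1 left of replicate 2; points are the mean over spots and bars the SD over spots. Grey lines give the mean and the 95th percentile of the negative control spots of the same array. The cKO arrays (red) lie below the wild-type arrays (blue) of their stage in both panels, and all miR-222-3p means on the cKO arrays lie below the 95th percentile of the negative controls.

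Detection of a probe required that over 50% of its used spots on that array were marked well above background. The longer miR-221-3p probe was detected on both cKO arrays and both wild-type arrays at E17.5. At E16.5 it was detected on 0 of 2 cKO arrays and 2 of 2 wild-type arrays. Spot counts show the same grading. At E17.5, 27 of 30 used spots were well above background in cKO and 28 of 28 in wild type. At E16.5, 7 of 29 used spots were in cKO and 30 of 30 in wild type. Single spots of this probe did not overlap between genotypes within a stage: they ran between 14.1 and 33.1 units in cKO and between 60.9 and 88.8 units in wild type at E17.5. At E16.5 they ran between 6.24 and 18.9 units in cKO and between 28.4 and 53.5 units in wild type. Spots of the shorter probe overlapped at E16.5, where the highest was 23.6 units in cKO and the lowest 19.0 units in wild type. Spots of an array are repeat measurements of the same RNA pool and not replicates of a genotype. How many other probes had spots apart in this way was not counted.

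**Figure D2:**
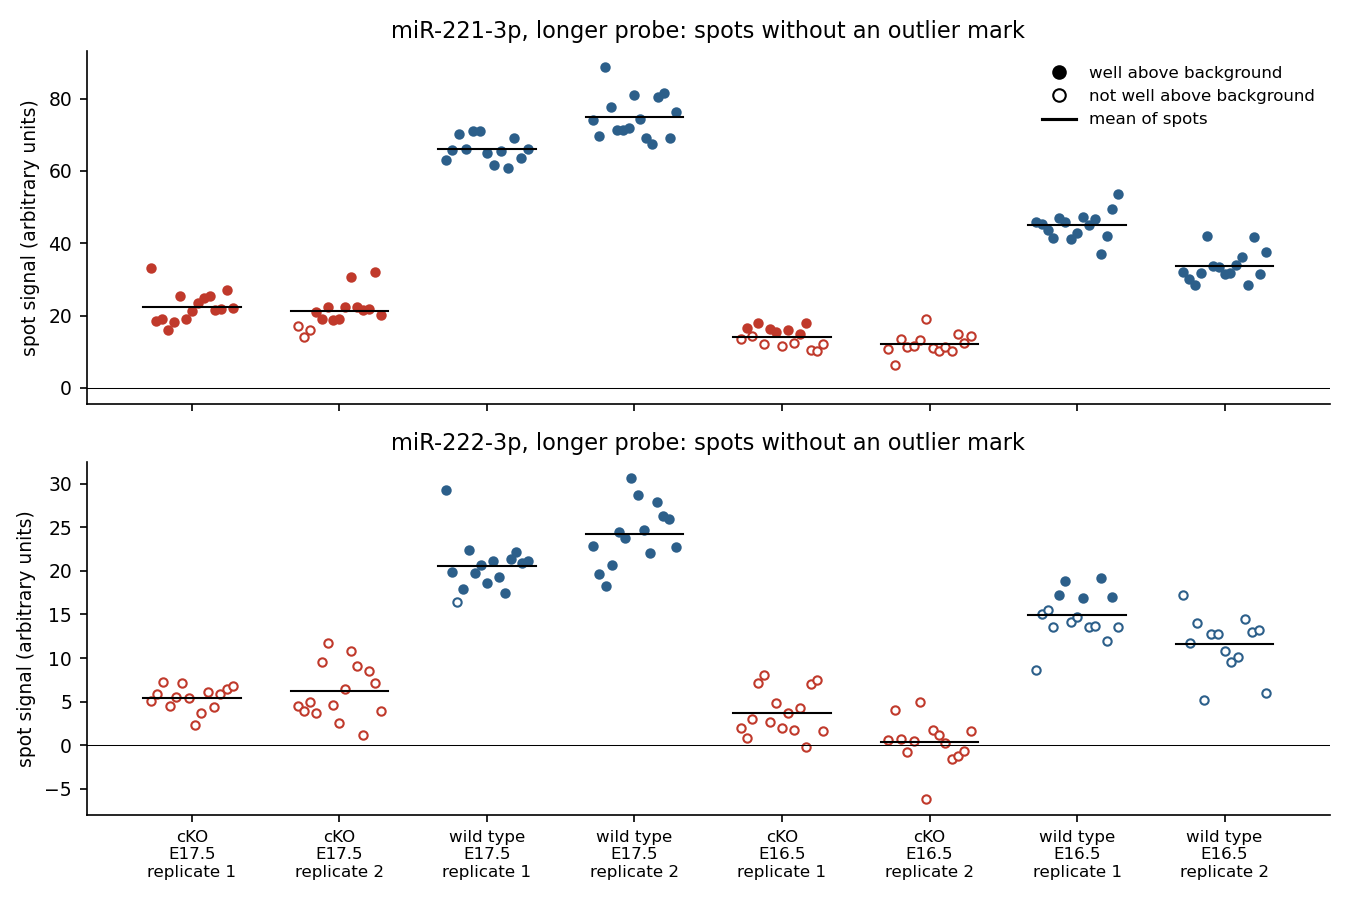
Every used spot of the longer probe of miR-221-3p (top) and miR-222-3p (bottom) on the 8 arrays, in arbitrary units on linear axes; filled spots were marked well above background, open spots were not, and the line is the array's mean. Within each stage the miR-221-3p spots of the cKO arrays lie wholly below those of the wild-type arrays, and no miR-222-3p spot of a cKO array is filled.

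Arrays differ in total brightness, so each was divided by the 75th percentile of its 474 probes detected on all 8 arrays. Scaled values under a common floor were raised to it before log2 was taken (log2 −4.24). The floor was set at the 5th percentile of the detected probes of an array, taken as the median of the 8 arrays. After this step the longer miR-221-3p probe stood at log2 −4.18 and −4.14 at E17.5 in cKO, against −2.93 and −2.80 on the wild-type arrays. At E16.5 both cKO arrays were at the floor, and the wild-type arrays stood at −3.15 and −3.08. The fitted log2 difference, cKO minus wild type, was −1.30 at E17.5, −1.13 at E16.5 and −1.21 ± 0.0348 (SE, 8 arrays) over both stages. This SE is lowered by the cKO E16.5 arrays, which share the floor value and so add no spread. Of the 383 miRNAs tested, 14 (3.66%) were at least 2-fold lower in cKO as fitted, and miR-221-3p was the last of these. The next inside that limit was miR-96-5p, a miRNA of sensory cells and epithelia, at −1.41. Those just outside it were miR-210-3p, known for its induction in hypoxia, at −0.90, and miR-6997-5p at −0.73.

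The size of the miR-221-3p difference depended on where dim values were held. Without the floor, the longer probe differed by −1.30 at E17.5 and −1.34 at E16.5, and the shorter probe by −1.35 and −1.30. As a share of wild type, the scaled cKO mean was 40.7% at E17.5 and 39.5% at E16.5 by the longer probe, and 39.4% and 40.8% by the shorter probe. Since miR-221-3p was detected on neither cKO array at E16.5, its level there is a bound. It was at least 1.80-fold lower in cKO than in wild type at that stage, taking for each cKO array the dimmest probe well above background on it where that was brighter. With the floor 4-fold lower, the fitted difference over both stages was −1.32 ± 0.0732, and with the mean of each array's negative controls subtracted as well it was −1.55. Raising the floor 2-fold put all 4 cKO arrays at the floor and left a difference of −0.25. Normexp background correction left −0.28. With the spots marked as outliers kept, the difference was −0.26 over both stages and 0.21 at E17.5, where its direction turned. These spots include a spot of 1451 units of the shorter probe on cKO E17.5 replicate 2. The used spots of that probe there ran between 9.52 and 18.2 units. With the outlier spots kept, the shorter probe was the brighter on average and was taken for miR-221-3p.

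**Figure D3:**
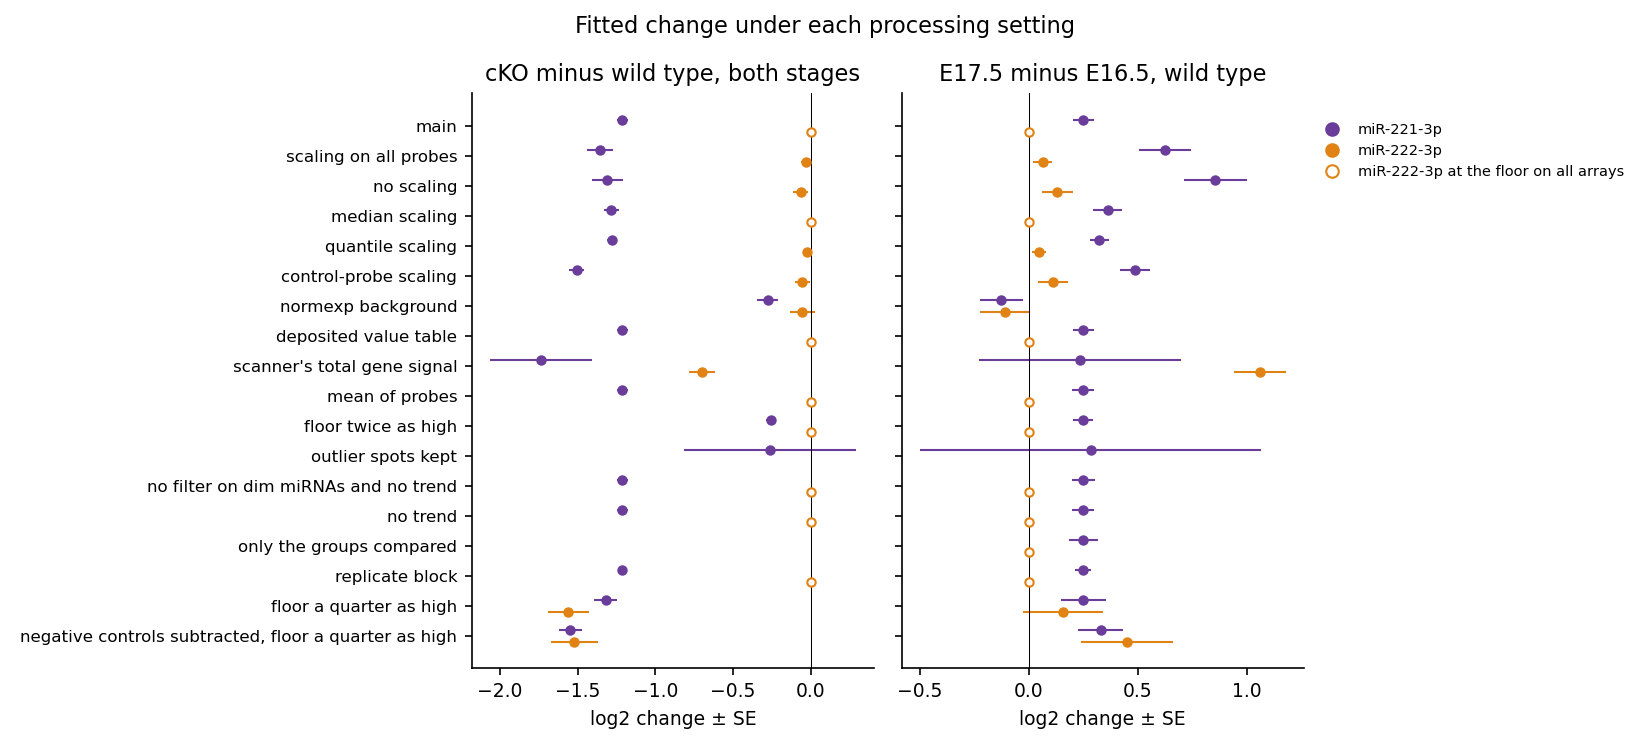
Fitted log2 change ± SE of miR-221-3p and miR-222-3p under each processing setting, for cKO minus wild type over both stages (left) and E17.5 minus E16.5 in wild type (right). miR-221-3p stayed below 0 under every setting on the left, between −1.73 and −0.25. miR-222-3p was at the floor on all 8 arrays where its symbol is open, which fixes its change at 0, and it reached −1.56 with the floor 4-fold lower.

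miR-222-3p was close to the limit of the array. Its longer probe gave 5.45 and 6.17 units on the cKO arrays at E17.5, against 20.6 and 24.2 units on the wild-type arrays. At E16.5 it gave 3.74 and 0.350 units on the cKO arrays, against 14.9 and 11.6 units on the wild-type arrays. The genotypes did not overlap at either stage, as for miR-221-3p, and how many other miRNAs share this was not counted. These signals are unscaled. At E17.5 the 75th percentile used for scaling was 408 and 375 units on cKO arrays, against 503 and 521 units on wild-type arrays. The negative control spots of the same arrays averaged between 2.56 and 4.69 units on cKO arrays and between 4.16 and 4.79 units on wild-type arrays. Their 95th percentiles ran between 8.13 and 10.3 units on cKO arrays and between 8.78 and 12.2 units on wild-type arrays. All 4 cKO means of miR-222-3p were therefore below the 95th percentile of their own array's negative controls. Both wild-type means at E17.5 were above theirs. At E16.5 the wild-type mean of replicate 1 was above it and that of replicate 2 was not.

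miR-222-3p was detected on both wild-type arrays at E17.5 and on none of the other 6 arrays. Of its used spots at E17.5, 0 of 29 were well above background in cKO and 28 of 29 in wild type. At E16.5 the counts were 0 of 29 in cKO and 5 of 28 in wild type. At E17.5 its spots, which are repeat measurements of the same pools, ran between 1.18 and 11.7 units in cKO and between 16.4 and 30.6 units in wild type. At E16.5 they ran between −6.20 and 8.07 units in cKO and between 5.22 and 19.1 units in wild type, and these ranges overlapped. The shorter probe was detected on no array. It gave 1.24 and 2.07 units in cKO and 13.1 and 13.3 units in wild type at E17.5, and 2.29 and −2.21 units in cKO and 9.14 and 7.79 units in wild type at E16.5.

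Detection on both E17.5 wild-type arrays put miR-222-3p among the tested miRNAs, but its scaled signal was under the floor on all 8 arrays. It was 1 of 13 tested miRNAs for which this held. Its fitted change was therefore 0 in every comparison, which carries no information about its level. At E17.5, where wild type was detected and cKO was not, miR-222-3p was at least 1.10-fold lower in cKO. Without the floor, the scaled cKO mean of the longer probe was 34.1% of wild type at E17.5. That share rests on cKO signals that differed from the mean of the negative controls by 0.759 and 1.68 units. At E16.5 both genotypes were not well above background, and no fold is given. The cKO signals there differed from the mean of the negative controls by 0.0672 and −2.20 units.

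The other products of the locus were not detected. The 2 probes of miR-221-5p, the other arm of Mir221, averaged between 0.346 and 3.79 units over the 8 arrays. The 3 probes of miR-222-5p averaged between −3.32 and 1.41 units. miR-1928, which shares the seed of the pair, averaged between −2.83 and 0.277 units over its 2 probes. No mean of these probes reached the 95th percentile of the negative controls of its array, in either genotype.

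Between embryonic days, miR-221-3p passed the test for a rise in wild-type skin, by a call that most alternatives did not keep. It did not pass in cKO skin, where both E16.5 arrays were at the floor, and the genotypes were not shown to differ in this. In wild type the longer probe stood at log2 −2.93 and −2.80 at E17.5, against −3.15 and −3.08 at E16.5. The fitted difference, E17.5 minus E16.5, was 0.25 ± 0.0493 (SE), with a limma adjusted p of 0.0384 over all 383 miRNAs. In the same comparison 57 of 383 tested miRNAs (14.9%) changed, of which 16 (4.18% of those tested) rose and 41 (10.7%) fell. The fit shares its estimate of spread over all groups. The cKO E16.5 arrays were at −4.35 and −4.57 without the floor, but at the floor they added no spread. This lowers the SE and p of miR-221-3p in every comparison. The call is near the threshold: without any single array it held in 1 of 8 fits, that without wild-type E17.5 replicate 1 (adjusted p = 0.0403), and the other 7 gave adjusted p between 0.0688 and 0.115. It also missed the threshold with only the wild-type arrays in the fit (0.150), with the floor 4-fold lower (0.115) and with the floor 2-fold higher (0.0507), and under normexp background correction the difference was −0.13.

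In cKO skin the longer miR-221-3p probe gave 22.5 and 21.3 units at E17.5, against 14.1 and 12.1 units at E16.5. These signals are unscaled, and the E17.5 cKO arrays were brighter as a whole, with a 75th percentile of 408 and 375 units against 288 and 288 units at E16.5. After scaling and with the E16.5 values at the floor, the fitted difference was 0.08 ± 0.0493 (SE, limma adjusted p = 0.241). Without the floor it was 0.30 by the longer probe and 0.14 by the shorter probe, against 0.25 and 0.19 in wild type. In cKO skin 135 of 383 tested miRNAs (35.2%) changed between the stages, 58 (15.1%) upward and 77 (20.1%) downward. With quantile scaling the cKO difference was 0.21 and passed (adjusted p = 0.0175), and with negative controls subtracted and the floor lowered it was 0.35 and passed (adjusted p = 0.0285).

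The genotype difference of miR-221-3p was not shown to differ between stages. The difference of the 2 genotype effects, E17.5 minus E16.5, was −0.17 ± 0.0697 (SE, limma adjusted p = 0.199), and 6 of 383 tested miRNAs (1.57%) passed in this comparison. It lay at 0.048 with the floor 4-fold lower, since the E16.5 cKO arrays then stood below the main floor, at log2 −4.35 and −4.57. For miR-222-3p the stage comparisons could not be read, because all 8 arrays were at the floor and detection on the wild-type E17.5 arrays alone put it among the tested miRNAs.

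Whether both members moved alike between stages was to be asked of their difference within each array. This could not be read: miR-222-3p was at the floor on all 8 arrays, and with the floor 4-fold lower it was still at the floor on both cKO arrays at E16.5.

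The profile of miR-221-3p over the 8 arrays was most like those of other miRNAs that were lower in cKO. Likeness was the root mean square difference of log2 scaled signals over 8 arrays, each miRNA centred on its own mean, among the 260 miRNAs detected on all arrays. The closest was miR-210-3p at 0.172, then miR-96-5p at 0.186 and miR-196a-5p, a miRNA of the Hox clusters, at 0.255. miR-193a-3p followed at 0.276 and miR-34a-5p, a p53 target, at 0.281, where the median over the 260 was 0.741. Between E17.5 and E16.5 in wild type these 5 differed by 0.13, −0.01, 0.15, 0.24 and 0.07, against 0.25 for miR-221-3p. Genotype dominates these profiles and chose miR-221-3p, so the likeness is a description, and no nearest profiles are given for miR-222-3p, which was flat at the floor.

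**Figure D4:**
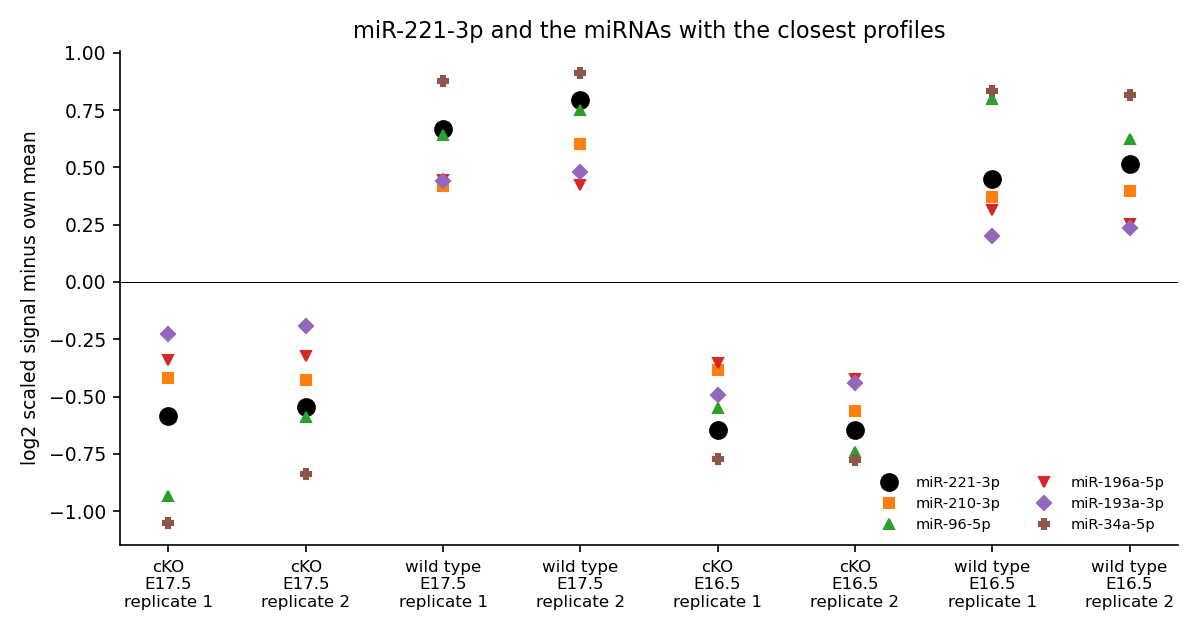
Log2 scaled signal minus each miRNA's own mean on the 8 arrays, for miR-221-3p (black) and the 5 miRNAs with the smallest root mean square difference from it. All 6 lie below 0 on the 4 cKO arrays and above 0 on the 4 wild-type arrays. miR-221-3p has the same value on both cKO E16.5 arrays because both were at the floor.

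Other miRNAs of the X chromosome changed in both directions. Of 84 on the array, 20 were tested besides the pair. Over both stages 11 rose, 4 fell and 5 did not pass, where 14.6% of all tested miRNAs fell and 45.7% rose (56 and 175, but 167 and 7 with the arrays scaled on positive control probes). Their median log2 difference was 0.20, against 0.17 for all tested miRNAs. With that scaling, on 19 such probes, 0 of the 20 rose and 11 fell, with a median of −0.17 against −0.15 for all tested miRNAs, so their direction follows the scaling. The largest differences were −0.55 for miR-20b-5p, of the miR-106a cluster (limma adjusted p = 0.000217), 0.36 for miR-672-5p (0.00289) and 0.34 for miR-652-5p (0.00292).

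Markers of the cell types in skin differed between genotypes beside miR-221-3p. All 10 miRNAs listed for skin epithelium fell in cKO, with a median of −2.56, where 56 of 383 tested miRNAs (14.6%) fell. The 10 fell under each of 6 ways of scaling the arrays, under which between 44 and 167 of all tested miRNAs fell. Typical epithelial miRNAs led the falls: miR-200c-3p at −3.36, then miR-203-3p at −3.19 and then miR-141-3p at −3.16. The summed scaled signal of the 10 ran between 2.82 and 4.29 on cKO arrays and between 27.2 and 32.1 on wild-type arrays. Between 7 and 9 of the 10 were detected on cKO arrays, against 10 on each wild-type array.

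The 6 miRNAs listed for dermal mesenchyme all rose, with a median of 0.37, where 45.7% of all tested miRNAs rose and their median was 0.17, but 0 of the 6 rose under the scalings on all probes, on positive controls or with none. The leading 3 were miR-199a-5p (0.41), miR-199a-3p (0.40) and miR-214-5p (0.38). Their summed scaled signal ran between 63.6 and 69.3 on cKO arrays and between 48.4 and 55.3 on wild-type arrays. Under the same limit on scaling, both miRNAs listed for endothelium rose, miR-126a-5p (0.55) and miR-126a-3p (0.34). So did 4 of 4 for skeletal muscle, led by miR-1a-3p at 0.36, then miR-206-3p at 0.32 and then miR-133a-3p at 0.29. For smooth muscle, miR-145a-5p rose (0.34) and miR-143-3p did not pass over both stages (0.01). By stage and under this scaling, miR-143-3p rose at E17.5 (0.21, limma adjusted p = 0.0327) and fell at E16.5 (−0.18, 0.0466). The difference between these stage effects did not pass (limma adjusted p = 0.0727). Changes of this size are near the shift made by scaling. Over both stages the median of all tested miRNAs was 0.17 here and −0.15 with scaling on positive controls. For blood 3 of 6 tested rose, among them miR-486a-5p and miR-223-3p (both 0.31), and miR-144-3p did not pass (−0.22). This share is near the 45.7% of all tested miRNAs. Of the last 2 lists, 0 rose under the same 3 scalings. With scaling on positive controls 1 miRNA each of smooth muscle, skeletal muscle and blood fell. miR-211-5p, listed for melanocytes, was detected on no array.

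The summed endothelial signal ran between 2.01 and 2.54 on cKO arrays and between 1.56 and 1.91 on wild-type arrays, and that of smooth muscle between 0.282 and 0.336 on cKO arrays and between 0.265 and 0.303 on wild-type arrays. For skeletal muscle it ran between 9.86 and 12.0 on cKO arrays and between 8.40 and 9.43 on wild-type arrays, and for blood between 4.63 and 5.08 on cKO arrays and between 3.14 and 5.05 on wild-type arrays. Under the scalings on all probes, on positive controls or with none, 0 miRNAs of these lists rose in cKO. The part of cell composition in the miR-221-3p difference was not tested.

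**Figure D5:**
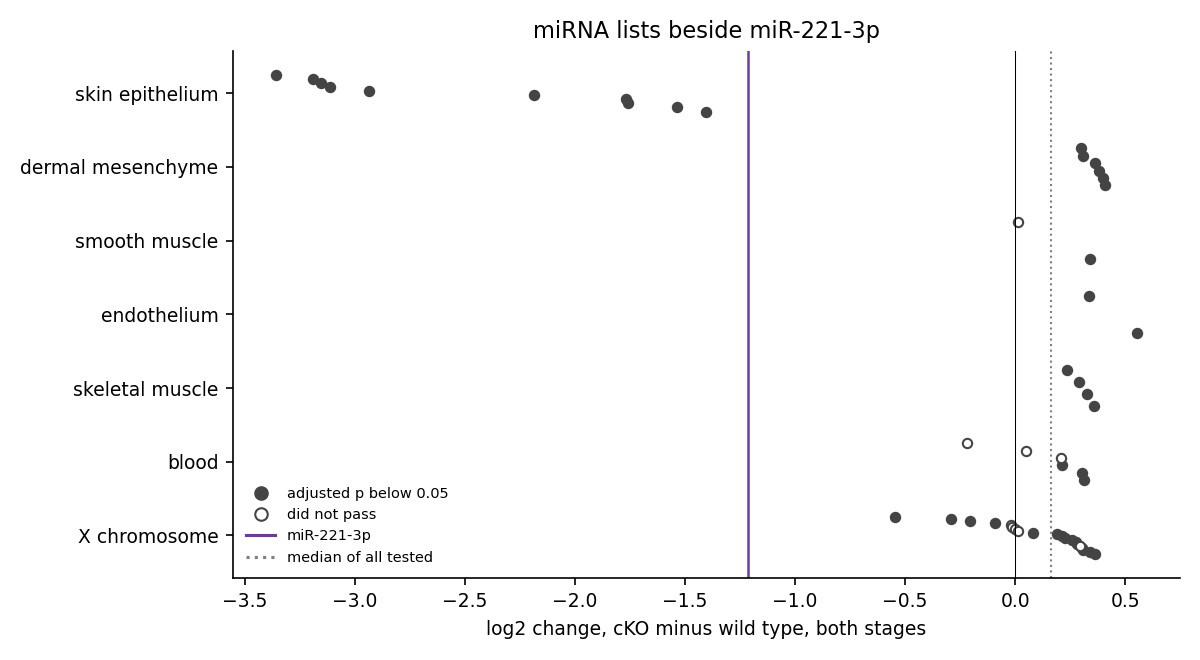
Log2 change over both stages, cKO minus wild type, of each tested miRNA in 7 lists, with miR-221-3p as the purple line (−1.21) and the median of all tested miRNAs as the dotted line (0.17). Filled points passed an adjusted p of 0.05. All skin epithelium markers lie left of miR-221-3p, no miRNA of the other lists does, and the markers of dermal mesenchyme, endothelium and skeletal muscle lie right of the dotted line under this scaling.

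Replicate arrays correlated with r between 0.997 and 0.999 over miRNAs, 0 spots were saturated, and between 278 and 382 miRNAs were detected per array. Each group occupied its own column of the only slide, so slide column and group cannot be told apart. With 2 arrays per group, precision is limited by their number.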

How the data were processed

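miRNA was measured in footpad skin on 8 arrays, with RNA isolated by the mirVana kit and labelled with Cy3, per the labels' protocols. Per the file headers, the authors used version 11.5.1.1 of Agilent Feature Extraction and mm9 annotation. The deposited scanner files hold the background-subtracted fluorescence intensity of each spot in linear units, per the file headers. The deposited value table held the same intensity (in 100% of spots with signal above 0, at a tolerance of 0.02), uncentred and unscaled, with a constant of the array for signals of 0 or less. The constant, also the table's median, at E17.5 was 3.07 and 3.75 for cKO arrays and 3.37 and 3.60 for wild-type arrays, and at E16.5 was 2.90 and 5.12 for cKO arrays and 3.25 and 4.69 for wild-type arrays. The table served as an alternative.

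Outlier spots (2.84% to 6.03% per array) were left out, spots averaged, arrays scaled, floored and log2-transformed, and the brightest probe taken per miRNA, which was the longer probe for both members. A miRNA was tested if some group detected it on both of its arrays, which 383 did, with limma 3.58.1 in R 4.3.3 (4 group means, eBayes with trend, residual degrees of freedom 4, prior 1.08), with Benjamini-Hochberg adjustment within each contrast at 0.05. Alternatives covered scaling, background correction, floor, outlier spots, probe choice, filter, trend, groups in the fit, a replicate block and leaving out each array. Sequences came from RefSeq tables on GRCm38.p6 and the scanner files. The members and lists were chosen with earlier results of these data known. Named miRNAs were the members, their other arms, miRNAs with the same seed, the 5 nearest profiles and the 3 largest changes of each list, except a list that is not reported here, as well as the neighbours of the 2-fold limit and miR-143-3p, which were chosen after their values were seen.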

Additional observations from a re-analysis of the deposited data

How the results depend on the processing

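The lower miR-221-3p signal in cKO kept its direction over both stages under every alternative run, and the cause of the differences in size was not tested except where stated. For cKO minus wild type over both stages, at E17.5 and at E16.5, miR-221-3p differed by −1.36, −1.63 and −1.09 with scaling on all probes, by −1.31, −1.69 and −0.93 with no scaling, by −1.51, −1.75 and −1.26 with control-probe scaling, by −0.28, −0.31 and −0.25 with normexp background correction (an added offset of 50 draws dim values together), and by −1.73, −1.39 and −2.08 with the scanner's total gene signal. In the same order it differed by −0.25, −0.38 and −0.13 with the floor 2-fold higher, by −0.26, 0.21 and −0.74 with outlier spots kept, which turned its direction at E17.5, and by −1.55, −1.54 and −1.56 with negative controls subtracted and a lower floor. With median scaling it was −1.28 over both stages and −1.43 at E17.5, with quantile scaling −1.28 and, at E16.5, −1.22, and with the floor 4-fold lower −1.32 and, at E16.5, −1.34. Without each array in turn it ranged between −1.36 and −1.23 at E17.5, between −1.16 and −1.10 at E16.5 and between −1.25 and −1.18 over both stages.

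For miR-222-3p, over both stages, at E17.5 and at E16.5, the difference was −1.56, −1.56 and −1.57 with the floor 4-fold lower, −1.52, −1.75 and −1.30 with negative controls subtracted as well, and −0.70, −1.23 and −0.17 with total gene signal. Over both stages and at E17.5 it was −0.032 and −0.064 with scaling on all probes, −0.065 and −0.13 with no scaling, −0.024 and −0.048 with quantile scaling and −0.056 and −0.11 with control-probe scaling. With normexp it was −0.053 over both stages and −0.11 at E16.5. At E16.5 neither genotype was well above background, so those values are no measured fold. In the main setting the difference was 0 by construction, since all its arrays were at the floor.

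The wild-type stage difference of miR-221-3p passed under 10 of 25 alternatives, among them no scaling (0.86), scaling on all probes (0.62) and control-probe scaling (0.49). The 10 include the deposited value table and the averaging of probes, which could not change this value. No scaling leaves in the brightness of the wild-type arrays, whose 75th percentile was 503 and 521 units at E17.5, against 398 and 284 units at E16.5. The wild-type stage difference missed with total gene signal (0.24), the floor 2-fold higher (0.25), outlier spots kept (0.28), no filter and no trend (0.25), the wild-type groups alone (0.25), the floor 4-fold lower (0.25) and negative controls subtracted (0.33), and was −0.13 with normexp. Without each array it ranged between 0.19 and 0.31. In cKO it was 0.21 with quantile scaling and 0.35 with negative controls subtracted, both passing, and −0.19 with normexp. The difference of genotype effects was 0.68 with total gene signal, 0.95 with outlier spots kept, 0.048 with the floor 4-fold lower and 0.017 with negative controls subtracted, and −0.75 with no scaling, −0.54 on all probes, −0.49 with control-probe scaling and −0.30 with median scaling, passing in 0 of 24. The wild-type stage difference of miR-222-3p was 1.06 and passed with total gene signal, with 5 of 8 arrays at the floor. Since detection on the wild-type E17.5 arrays alone admitted it, nothing is read from that call. The change of the pair's difference between stages, which the floor makes unreadable, was 0.17, and it ran between −0.10 with normexp and 2.65 with outlier spots kept. Replicate number goes with slide row, and same-numbered arrays did not deviate together throughout (correlations between −0.14 and 0.28). The replicate block left the miR-221-3p stage difference in wild type at 0.25 (adjusted p = 0.0258) and changed no call of the pair. Its count of stage changes was 47 in wild type and 121 in cKO.

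Over all miRNAs, 57 changed between stages in wild type, but 17 with scaling on all probes, 192 with none, 102 with control-probe scaling, 163 with normexp, 29 with the floor 2-fold higher, 33 with outliers kept, 6 with no filter and no trend, 5 with the wild-type groups alone, and 8 to 61 without each array. In cKO 135 changed, but 6 with scaling on all probes, 28 with none, 74 with the floor 2-fold higher, 6 with no filter and no trend, 57 with the cKO groups alone, and 32 to 138 without each array. In cKO it was 138 without either wild-type E16.5 array and at most 89 without any of the other 6, and in wild type it was 61 without wild-type E16.5 replicate 1 and at most 37 without any of the other 7. Over both stages 175 rose and 56 fell in cKO (75.8% of calls higher), with 5 and 44 (10.2%) on all probes, 6 and 57 (9.52%) with no scaling, 7 and 167 (4.02%) on control probes, and 80 rises with no filter and no trend. The floor 4-fold lower, the subtraction and the fit with no filter and no trend were chosen after seeing the data. Both members drop out where detection on all 8 arrays is asked, and miR-222-3p where outlier spots are kept. The fit with no filter was not run with a trend, which could not be fitted.

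At the signal of miR-222-3p in cKO, which was within the spread of the negative controls, a difference between stages could not be measured. Neither member had a probe detected on all 8 arrays, so averaging such probes changed neither.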
